A study of Mus musculus with 2 samples.

Results

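Cytochrome P450 enzymes were followed through every cell class of 2 single-cell RNA libraries from the prostate of wild-type male C57BL6 mice. Members were all genes whose symbol in the gene list begins with Cyp, a number, a letter and a second number, which gave 99 of 32285 genes, 1 of them an antisense transcript (Cyp4x1os). One library held cells of the ventral prostate lobes, run with version 2 of the 10x Genomics kit. The other held cells of the proximal and periurethral region, where the prostatic ducts join the urethra, run with version 3. Both tissues were dissociated with papain and then TrypLE, with a target of 5000 cells. The age of the mice, and how many were pooled, are not given in the sources used here. Each group is 1 library, so the region and the version of the kit cannot be told apart, there is no replicate check, and no test or p-value could be given. Every interval is a 95% interval for counting error only.

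P450 enzymes are haem proteins of the endoplasmic reticulum or the inner mitochondrial membrane that insert an oxygen atom into their substrate, with electrons passed on by the reductase Por or by the ferredoxin Fdx1. Some build steroid hormones, others break down cholesterol, retinoic acid, vitamin D or fatty acids, and the largest families act on foreign chemicals. In the prostate they are studied because they can change local levels of steroids and oxysterols and can activate carcinogens.

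The roles below order the members: 48 xenobiotic genes, 29 of fatty acids and eicosanoids, 6 of cholesterol, oxysterols and bile acids, 6 of steroid hormone synthesis, 3 of retinoids, 3 of vitamin D, 3 with no assigned role and the antisense transcript. At least 1 UMI (unique molecular identifier, 1 counted RNA molecule) was seen for 51 members in ventral and for 78 in proximal cells. In all, 47 were seen in both and 17 in neither. A total of 50 UMIs or more was reached by 13 ventral and 24 proximal members. Levels are given as CPM, a gene's UMIs in all cells of a class scaled to a total of 1e+06 UMIs.

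The promoters of 5 members described at length below are shown first, so that each can be read beside its expression. They were chosen after their levels were seen. The stretches are the 250 bases before the transcription start in the RefSeq table for GRCm38.p6, on the gene's strand, cut where the GENCODE M21 gene begins earlier. Capitals mark matches to 4 short motifs searched on both strands: GCGTG, the core of the element bound by the Ahr-Arnt pair, AGGTCA, a half-site of nuclear receptors, AGAACA, a half-site of the androgen and glucocorticoid receptors, and TATAAA, the TATA box. The motifs share no common stretch of more than a few letters and no printed match overlaps another.
Cyp2f2, chr7:27119705-27119908, plus strand: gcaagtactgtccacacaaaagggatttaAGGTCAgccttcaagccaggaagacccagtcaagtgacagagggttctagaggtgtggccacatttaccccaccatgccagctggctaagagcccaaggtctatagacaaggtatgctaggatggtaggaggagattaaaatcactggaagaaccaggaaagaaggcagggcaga
Cyp2b10, chr7:25897408-25897619, plus strand: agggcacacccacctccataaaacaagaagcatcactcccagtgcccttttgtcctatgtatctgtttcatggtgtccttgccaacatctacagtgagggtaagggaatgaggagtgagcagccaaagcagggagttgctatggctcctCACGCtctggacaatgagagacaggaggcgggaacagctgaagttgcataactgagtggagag
Cyp3a57, chr5:145345019-145345268, plus strand: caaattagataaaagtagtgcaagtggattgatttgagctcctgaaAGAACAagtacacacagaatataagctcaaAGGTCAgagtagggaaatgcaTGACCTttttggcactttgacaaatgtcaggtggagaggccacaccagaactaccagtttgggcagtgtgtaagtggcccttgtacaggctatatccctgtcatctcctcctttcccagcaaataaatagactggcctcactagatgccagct
Cyp27a1, chr1:74713285-74713534, plus strand: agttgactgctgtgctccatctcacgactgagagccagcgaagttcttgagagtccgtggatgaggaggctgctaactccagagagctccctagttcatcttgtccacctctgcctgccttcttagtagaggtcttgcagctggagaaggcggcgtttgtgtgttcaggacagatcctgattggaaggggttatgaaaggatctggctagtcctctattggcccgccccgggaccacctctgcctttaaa
Cyp1b1, chr17:79715062-79715311, minus strand: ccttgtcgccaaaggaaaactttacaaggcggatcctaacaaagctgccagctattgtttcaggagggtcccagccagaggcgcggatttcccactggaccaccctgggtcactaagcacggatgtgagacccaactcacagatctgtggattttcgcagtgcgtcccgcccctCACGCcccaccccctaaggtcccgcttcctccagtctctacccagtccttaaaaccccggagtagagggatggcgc

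The Cyp2f2 stretch holds 1 AGGTCA at 221 bases before the RefSeq start, and Cyp3a57 holds 2, at 174 and 153, with 1 AGAACA at 204. GCGTG stands in the Cyp1b1 window at 76 bases before the start and in the Cyp2b10 window at 101, with a second at 9 that lies past the printed end. The Cyp27a1 window holds none of the 4 motifs. Over all 32851 promoters in the table the shares with a match were 28.2% for GCGTG, 14.0% for AGGTCA, 16.1% for AGAACA and 12.4% for TATAAA. Over the 86 promoters of the 76 members in the table they were 17.4%, 22.1%, 19.8% and 34.9%. Of the members with enough UMIs to be described below, 22 had 23 promoters in the table. Among these promoters 9 held GCGTG, 2 AGGTCA, 3 AGAACA and 4 TATAAA. These are matches of letters and not binding sites.

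After filters, 1988 ventral cells (median 25758.5 UMIs) and 3705 proximal cells (median 15260) were kept, and the libraries shared 0 barcodes. Clusters were named from fixed marker genes, with the P450 members left out of the clustering, and each class is called by its name with "-like". The ventral library gave 1404 distal luminal-like, 93 proximal luminal-like, 141 basal-like and 30 macrophage-like cells. The proximal library gave 707 distal luminal-like, 774 proximal luminal-like, 911 basal-like, 516 fibroblast-like, 61 endothelial-like, 79 macrophage-like, 27 T or NK-like, 26 seminal vesicle epithelium-like and 6 smooth muscle or pericyte-like cells. A further 320 ventral and 598 proximal cells lay in clusters left unnamed. The ventral basal-like cells, 1 cluster with Krt5, Krt15, Dcn and Sparc among its leading genes, had UMIs of all 7 basal markers (4609.8 CPM in sum) and of all 7 fibroblast markers (5314 CPM). In proximal basal-like cells the sums were 8324 and 1339 CPM, and fibroblast-like cells had 9158 CPM of the fibroblast markers. Their part in any ventral basal-like value below was not tested. The doublet caller marked 11 of 5704 cells (0.193%), so it did not work and doublets are largely still present. The share of secretory RNA was measured through Sbp and Spink1, secretions of distal luminal cells. They took 46.3% of UMIs of ventral distal luminal-like cells, 19.3% of proximal luminal-like, 21.1% of macrophage-like and 1.62% of basal-like cells. Proximal values were 16.2% in distal luminal-like cells and no more than 0.229% in the other classes. The median share per cell was 1.65% in ventral proximal luminal-like, 1.42% in ventral macrophage-like and 0.166% in proximal distal luminal-like cells. Over 5% was reached by 33 of 93, 2 of 30 and 166 of 707 of these cells, in the same order.

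All members together took 165 CPM of ventral and 482 CPM of proximal UMIs. Xenobiotic genes held 66.7% of the ventral and 77.0% of the proximal P450 UMIs. Proximal luminal-like cells had the highest summed level of the named epithelial classes in both libraries, 983 CPM (ventral) and 716 CPM (proximal). Distal luminal-like cells had 138 and 174 CPM, basal-like cells 254 and 509.7, and in the proximal library fibroblast-like cells had 374, macrophage-like cells 229.6 and endothelial-like cells 215. Cyp2f2 alone made 846 of the 983 CPM and 600.5 of the 716 CPM in proximal luminal-like cells.

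**Figure D1:**
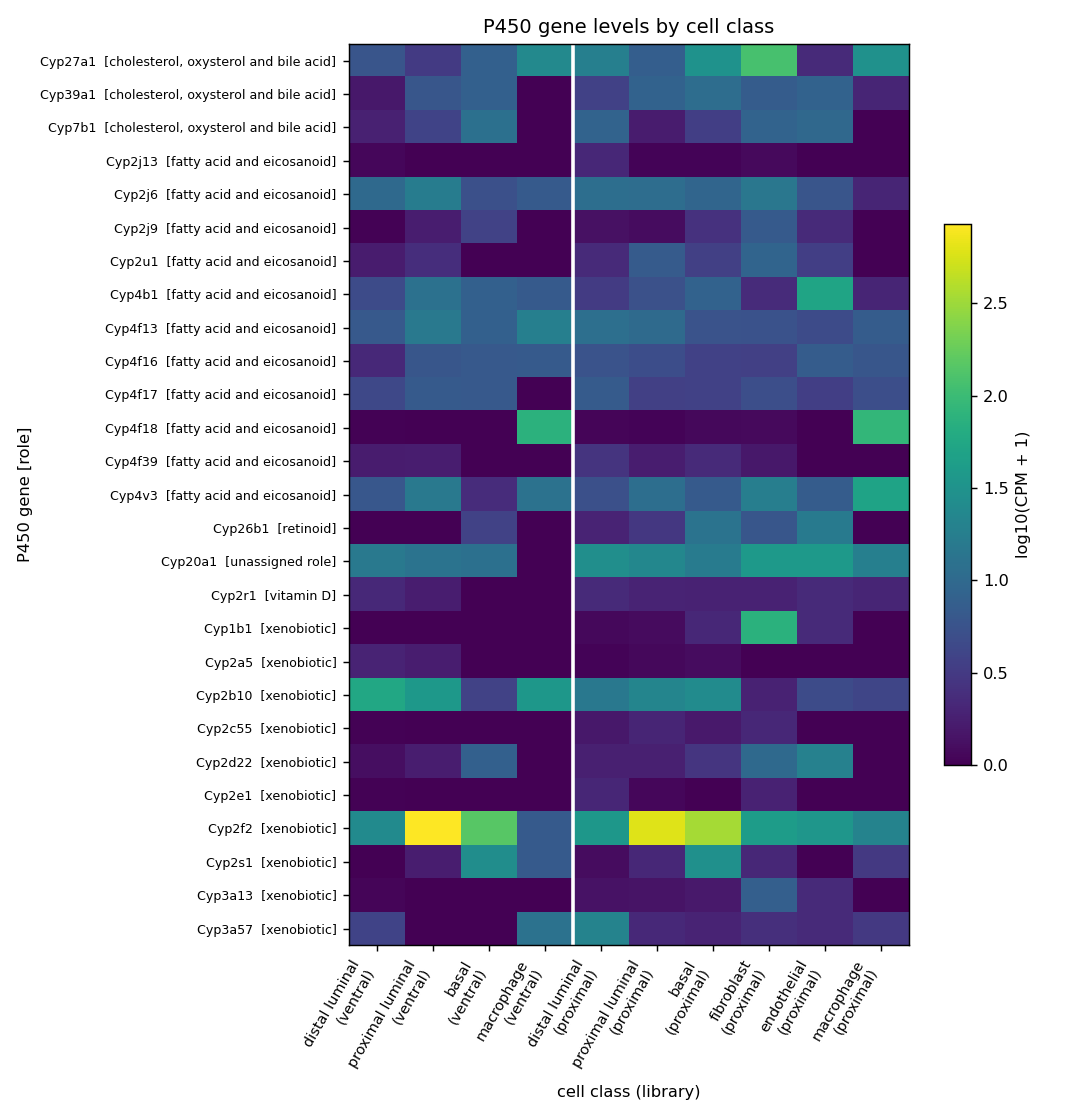
Heat map of 27 P450 genes (rows, with their role) in the cell classes of the ventral and proximal libraries (columns, either side of the white line), coloured by log10(CPM + 1). Cyp2f2 is the brightest row, at 846 CPM in ventral and 600.5 CPM in proximal proximal luminal-like cells.

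Cyp2f2 encodes a lung-type enzyme that oxidises small aromatic compounds such as naphthalene, and lies at chr7:27119909-27133660 on the plus strand (mm10, from the matching GENCODE M21 annotation). In the ventral library proximal luminal-like cells had 846 CPM (798–896), basal-like cells 145 CPM (118–175), distal luminal-like cells 23.9 CPM (22.3–25.5) and macrophage-like cells 5.78 CPM (0.146–32.2). Proximal luminal-like cells of the other library had 600.5 CPM (591–610.3), basal-like cells 339 CPM (329–349) and distal luminal-like cells 34.2 CPM (32.3–36.2). Proximal luminal-like cells were the highest of the 3 epithelial classes in both libraries, basal-like cells second and distal luminal-like cells lowest, with no overlap of the intervals. The ratio of proximal to distal luminal-like cells was 35.4 (32.5–38.7) among ventral and 17.6 (16.5–18.7) among proximal cells. Sbp and Spink1 took over 5% of UMIs in 33 of 93 ventral proximal luminal-like and 1353 of 1404 distal luminal-like cells. Such cells were then left out of the proximal luminal-like and basal-like classes, while all distal luminal-like cells were kept. The ventral log2 ratio of proximal over distal luminal-like cells moved from 5.09 to 6.08. That of basal-like over proximal luminal-like cells moved from -2.54 to -3.59. An opposite-strand gene, Gm15883, overlaps Cyp2f2.

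Cyp2f2 was spread over cells. Of the ventral proximal luminal-like cells 86 of 93 had a UMI (92.5%, exact binomial interval 85.1–96.9), with a median of 6 UMIs and at most 95 in a cell. Of the proximal ones it was 738 of 774 (95.3%, 93.6–96.7), with a median of 12 and at most 147. After each cell was thinned to 1000 UMIs the shares were 41.9% and 41.2%. Macrophage-like cells, which should lack the gene, had a UMI in 3.33% and 6.33% of cells, and in 0% and 1.28% after thinning. Their median depths were 3751 and 11922 UMIs, against 14078 and 21150 in proximal luminal-like cells. Fibroblast-like cells held 41.0 CPM (35.8–46.8), with a UMI in 16.9% of 516 cells and in 2.94% after thinning. With the highest doublet scores removed the log2 ratio of fibroblast-like over epithelial cells moved from -2.75 to -3.88.

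Within the proximal library the gene also graded between clusters. The unnamed cluster led by Clca1, Areg and Krt4 had 1053 CPM (1026–1081), the proximal luminal-like clusters led by Tff3, Prol1 and Gm13986 had 762, 721 and 453 CPM, and the unnamed cluster led by haemoglobin genes had 571 CPM. Among basal-like clusters the one led by Grp, Ivl and Col17a1 had 588 CPM (566–612) and the other basal-like cells 202 CPM (192–212), a ratio of 2.91 (2.74–3.10). The seminal vesicle epithelium-like cluster had 4.21 CPM (1.15–10.8). The level in the Grp-led basal-like cluster lay within the range of the proximal luminal-like clusters.

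**Figure D2:**
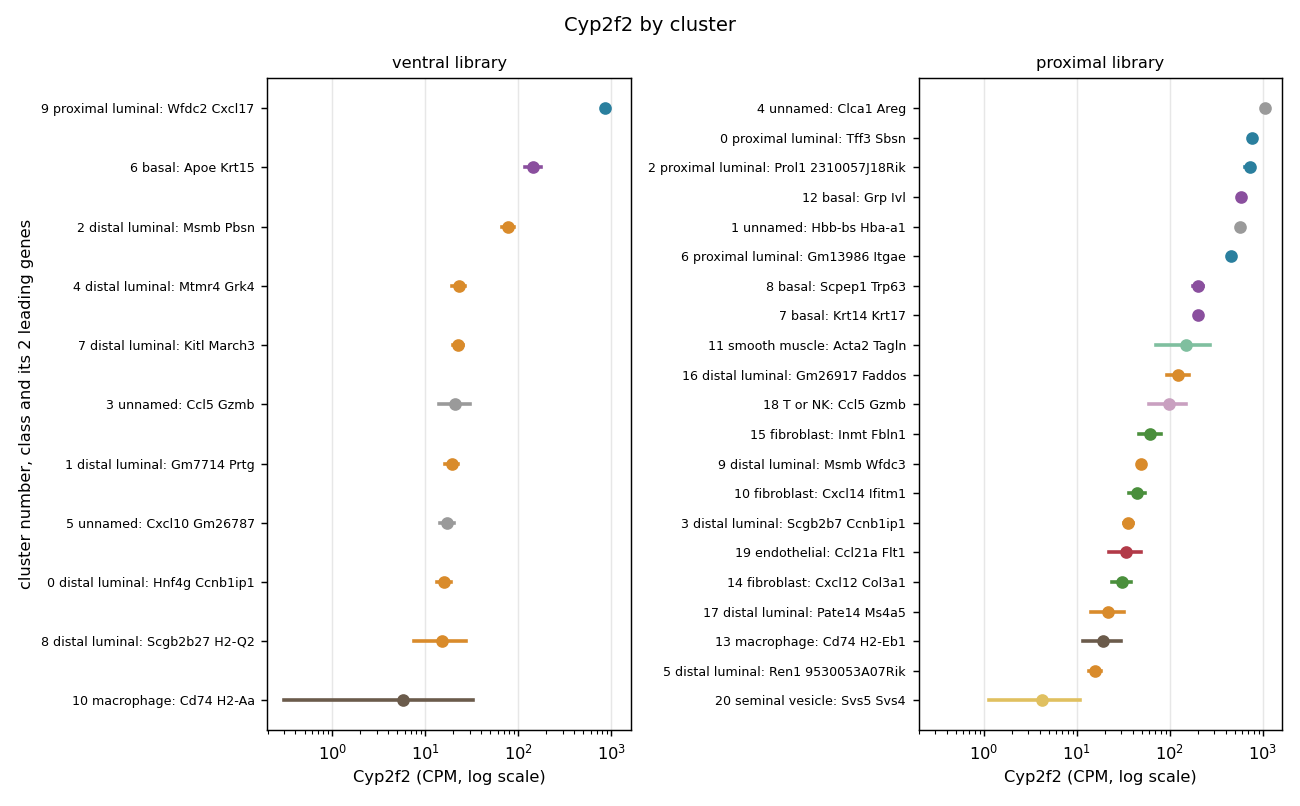
Cyp2f2 level (CPM, log scale) in every cluster of the ventral (left) and proximal (right) libraries, with each cluster's number, class and 2 leading genes; points are levels and lines are 95% Poisson intervals. The Clca1-led cluster reaches 1053 CPM and the seminal vesicle epithelium-like cluster lies at 4.21 CPM.

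Cyp2b10, the drug-inducible enzyme that is a classic target of the receptor Nr1i3, lies at chr7:25897620-25926624 on the plus strand and had a different pattern in each library. In the ventral library it was at 56.7 CPM (54.3–59.2) in distal luminal-like cells, 35.3 CPM (26.1–46.6) in proximal luminal-like cells and 2.76 CPM (0.334–9.96) in basal-like cells. A UMI was seen in 792 of 1404 distal luminal-like cells (56.4%, and 3.85% after thinning) and in 25 of 93 proximal luminal-like cells (26.9%). Sbp and Spink1 took over 5% of UMIs in 33 of those 93 cells. The part of such cells in the proximal luminal-like level was not tested. The macrophage-like cells, at 34.7 CPM, had 6 UMIs in 2 cells. All 6 ventral distal luminal-like clusters lay between 37.1 and 63.4 CPM.

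Cyp2b10 varied between clusters of the same class in the proximal library. Distal luminal-like cells had 13.9 CPM (12.6–15.2), but the cluster led by Scgb2b7 had 31.6 CPM (28.3–35.3) and the one led by Ren1 had 1.75 CPM (1.07–2.70). Proximal luminal-like cells had 20.3 CPM (18.6–22.2), with 105 CPM (76.6–139.6) in the 21 cells of the cluster led by Prol1. Basal-like cells had 25 CPM (22.2–27.9), of which 295 of 306 UMIs (96.4%) lay in the Grp-led cluster. That cluster had 68.0 CPM (60.5–76.2) against 1.39 CPM (0.694–2.49) in the other basal-like cells, a ratio of 48.9 (27.0–99.1). Its UMIs came from 62 of 230 cells, with up to 31 in a cell. Fibroblast-like cells had 0.920 CPM (0.299–2.15), 19.6-fold (8.37–60.4) below the epithelial cells together.

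**Figure D3:**
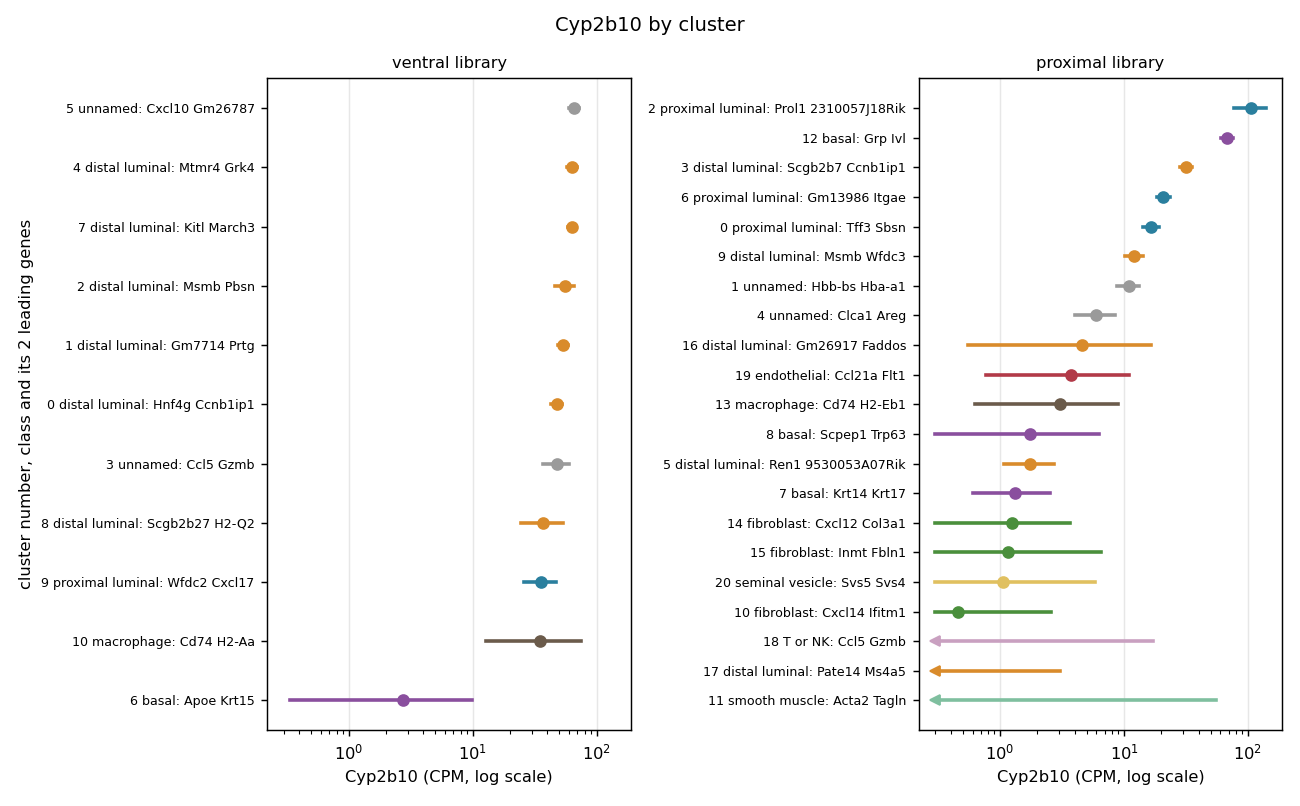
Cyp2b10 level (CPM, log scale) by cluster in the ventral (left) and proximal (right) libraries, with class and 2 leading genes; points are levels, lines are 95% Poisson intervals cut at the left edge, and arrowheads mark clusters at 0 UMIs. Ventral distal luminal-like clusters sit together from 37.1 to 63.4 CPM, while proximal clusters range from 0 to 105 CPM.

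Cyp1b1, an enzyme of oestrogens and polycyclic hydrocarbons induced through Ahr, was highest in fibroblast-like cells. It lies at chr17:79701537-79715061 on the minus strand. Fibroblast-like cells had 74.0 CPM (66.9–81.6), from 402 of the 431 UMIs of the proximal library, and epithelial cells 0.339 CPM, a ratio of 218 (145–345). A UMI was seen in 191 of 516 fibroblast-like cells (37.0%, and 6.08% after thinning) and in 0 of 79 macrophage-like cells. That 0 allows a share of up to 4.56% of cells with a UMI at this depth, and does not bound the share that express the gene. Endothelial-like cells had 1 UMI. The ventral library, in which no cluster was named fibroblast-like, held 1 UMI in all. The receptor Ahr was at 20.8 CPM in fibroblast-like and 153 CPM in epithelial cells of the proximal library, 7.35-fold (6.11–8.93) lower in the former, while its partner Arnt was 4.00-fold (3.53–4.53) higher in fibroblast-like cells.

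Cyp2s1, an extrahepatic enzyme of squamous and other lining epithelia, was highest in basal-like cells among the epithelial classes of both libraries. Ventral macrophage-like cells had 5.78 CPM (0.146–32.2) from 1 UMI, an interval that overlaps that of ventral basal-like cells. Ventral basal-like cells had 26.2 CPM (15.8–40.9, 19 UMIs), proximal luminal-like cells 1 UMI and the 1404 distal luminal-like cells 0 UMIs. Proximal basal-like cells had 28.6 CPM (25.7–31.8), while proximal luminal-like cells had 1.11 CPM (0.729–1.61) and distal luminal-like cells 0.264 CPM (0.121–0.501). The ratio of basal-like to proximal luminal-like cells was 36.4 (5.78–1512) among ventral and 25.9 (17.5–39.9) among proximal cells. The intervals of both basal-like levels overlapped, and the Grp-led cluster had 37.6 CPM against 23.7 CPM in the other basal-like cells. Gm45226 and Gm26707, both on the opposite strand, overlap Cyp2s1.

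Cyp3a57, a member of the drug-metabolising 3a family, was highest in distal luminal-like cells of the proximal library. They had 19.6 CPM (18.1–21.1), and the other named classes had between 0 and 2.03 CPM. Proximal luminal-like cells were 17.1-fold (11.7–25.9) lower and basal-like cells 20.0-fold (11.4–38.9) lower. Ventral distal luminal-like cells had 2.91 CPM (2.39–3.51), and both proximal luminal-like and basal-like cells had 0 UMIs. With 3 UMIs as the limit that a count of 0 allows, proximal luminal-like cells were at least 1.35-fold lower, while the exact interval of the ratio reached 0.927, and for basal-like cells no difference was detectable at this depth. The macrophage-like cells, with 2 UMIs, had 11.6 CPM (1.40–41.7).

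The remaining xenobiotic members were sparse. Cyp2d22 was at 18.6 CPM (10.4–30.6) in endothelial-like and 9.02 CPM (6.67–11.9) in fibroblast-like cells, against 0.989 CPM in epithelial cells. Cyp3a13 was at 6.62 CPM in fibroblast-like and 0.424 CPM in epithelial cells. Cyp2a5 had 46 ventral UMIs, at 0.953 CPM (0.668–1.32) in distal luminal-like cells and 0.947 CPM over all ventral cells, and Cyp2c55 had 80 proximal UMIs with no named class above 1.10 CPM. Cyp2e1, the ethanol-oxidising enzyme, had 46 proximal UMIs, but 33 of them (71.7%) were in 1 cell.

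**Figure D4:**
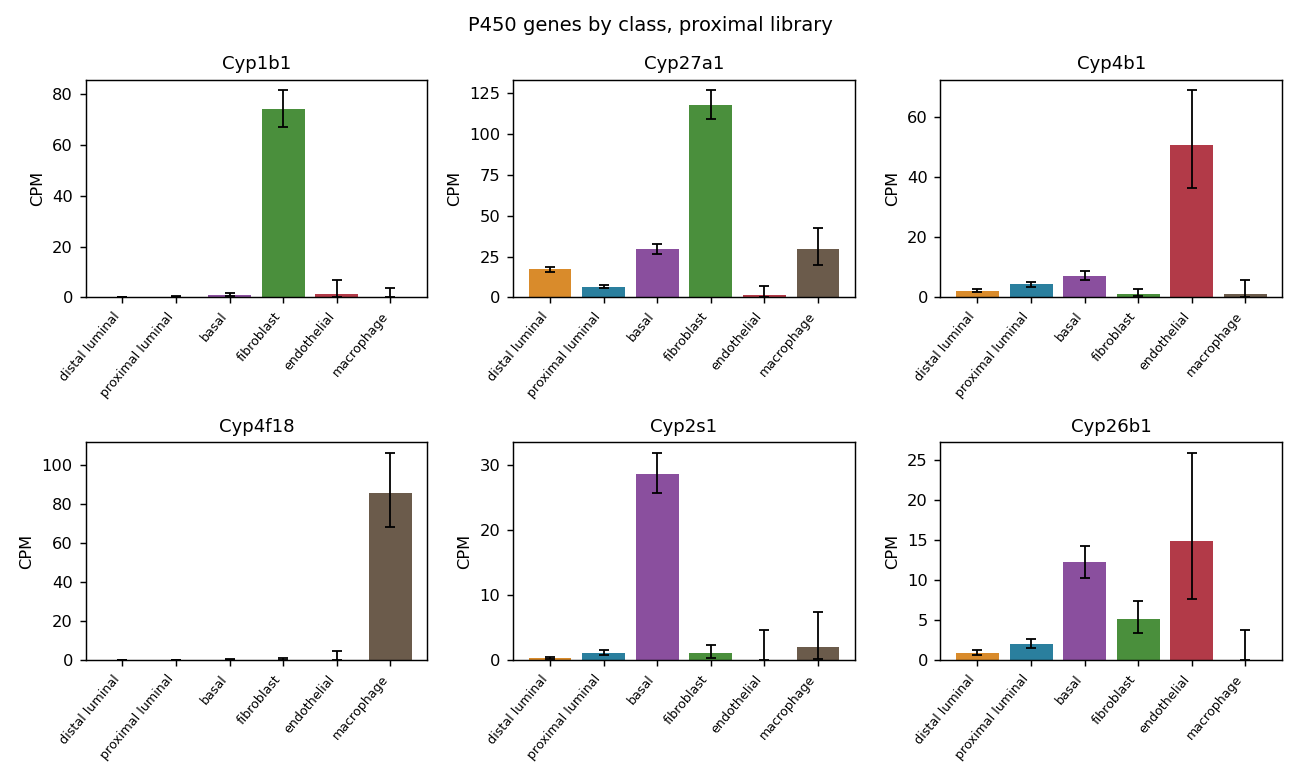
Levels (CPM, bars from 0, with 95% Poisson intervals) of 6 P450 genes in 6 cell classes of the proximal library. Cyp1b1 and Cyp27a1 peak in fibroblast-like cells (74.0 and 118 CPM), Cyp4b1 in endothelial-like (50.7 CPM), Cyp4f18 in macrophage-like (85.3 CPM) and Cyp2s1 in basal-like cells (28.6 CPM), and the Cyp26b1 intervals of basal-like and endothelial-like cells overlap.

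Of the genes of cholesterol, oxysterols and bile acids, Cyp27a1 was the most counted. This mitochondrial sterol 27-hydroxylase lies at chr1:74713574-74737892 on the plus strand. Fibroblast-like cells had 118 CPM (109–127), basal-like cells 29.7 CPM (26.7–32.9), macrophage-like cells 29.5 CPM (19.7–42.3), distal luminal-like cells 17.3 CPM (15.9–18.7) and proximal luminal-like cells 6.51 CPM (5.54–7.61), all in the proximal library. Endothelial-like cells had 1.24 CPM from 1 UMI, and the seminal vesicle epithelium-like cells had 0 UMIs. Fibroblast-like cells were above every other class, 7.51-fold (6.80–8.28) over the epithelial cells together, and basal-like and macrophage-like cells could not be ordered. Their 3 clusters, led by Cxcl14, Cxcl12 and Inmt, had 119.9, 123 and 99 CPM. A UMI was seen in 59.7% of fibroblast-like cells and 25.3% of macrophage-like cells, and after thinning in 10.2% and 0% (0 of 78 cells). That 0 allows up to 4.62% of cells with a UMI at the thinned depth, and does not bound the share that express the gene.

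Among distal luminal-like cells Cyp27a1 was highest in the cluster led by Msmb, which held 42.7% of its ventral and 72.5% of its proximal UMIs in that class. The ventral one had 31.8 CPM (25.2–39.6), and the other distal luminal-like cells 3.0 CPM (2.46–3.63), which is 10.6-fold (7.80–14.3). The proximal one had 38.8 CPM (35.2–42.6) and the others 7.01 CPM (5.97–8.18), which is 5.53-fold (4.6–6.67). Cyp3a57 was also higher in both Msmb-led clusters, at 10.5 against 2.38 CPM for the ventral (4.39-fold, 2.71–6.89) and 32.5 against 13.5 CPM for the proximal one (2.42-fold, 2.07–2.82). Cyp2j13 had 34 of 38 proximal distal luminal-like UMIs in that cluster (89.5%), and Cyp4f39 45 of 60 (75%). Called here means at least 2-fold apart, with 1 CPM added to each side, among genes with at least 20 UMIs in the cells compared. By this rule 4 of 17 members were higher in the ventral Msmb-led cluster, where 7.11% of all genes were, and 1 lower (3.13%). For the proximal one it was 7 of 20 higher (4.70% of all genes) and 0 lower (3.53%). The 7 include Cyp2e1, with its UMIs mostly in 1 cell. The clusters were drawn from these cells, so the contrasts are descriptions.

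**Figure D5:**
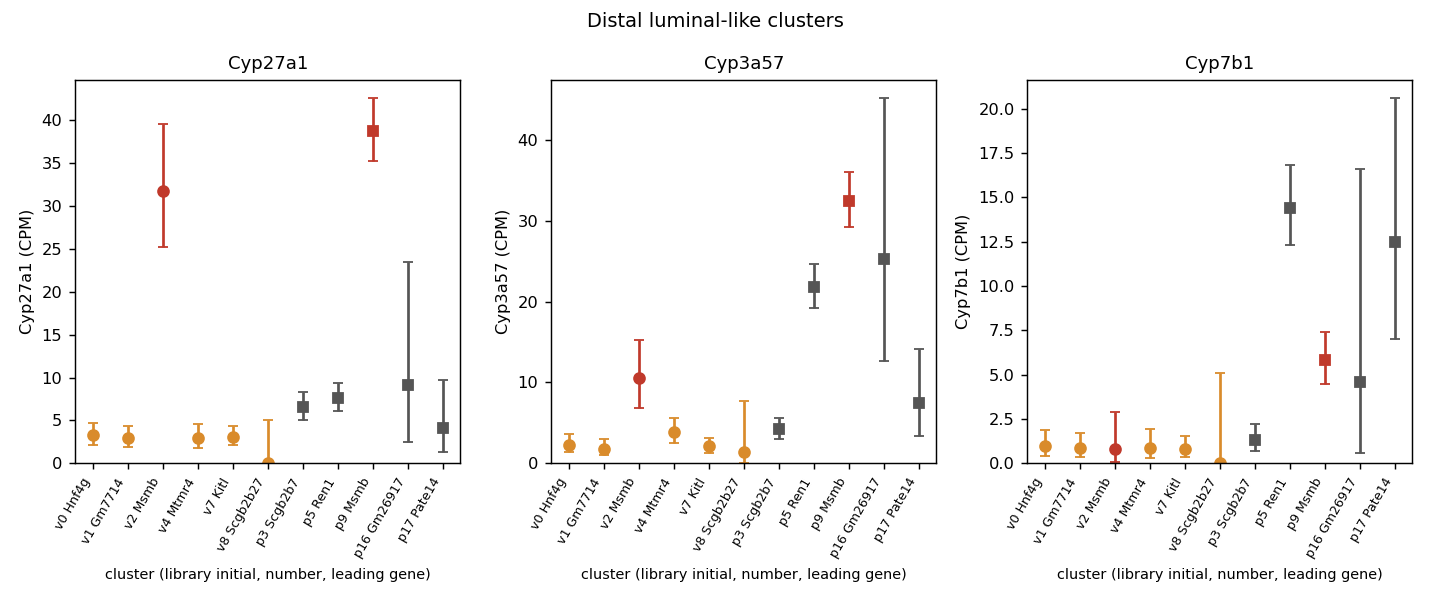
Cyp27a1, Cyp3a57 and Cyp7b1 levels (CPM, with 95% Poisson intervals) in each distal luminal-like cluster of the ventral (circles, labels starting with v) and proximal (squares, labels starting with p) libraries; red marks the Msmb-led clusters. Cyp27a1 is highest in red (31.8 and 38.8 CPM), and Cyp7b1 is highest in the Ren1-led cluster (14.4 CPM).

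Cyp7b1, the oxysterol 7-hydroxylase that also clears a ligand of the oestrogen receptor Esr2, was highest in another distal luminal-like cluster. The proximal cluster led by Ren1, with Tgm4 among its leading genes, had 14.4 CPM (12.3–16.8) against 4.14 CPM (3.35–5.07) in the other distal luminal-like cells, a ratio of 3.49 (2.69–4.54). It was the 1 member of 20 called higher in that cluster (8.18% of all genes), and 5 were lower (4.98%): Cyp2b10, Cyp27a1, Cyp2f2, Cyp4v3 and Cyp2e1. The Pate14-led cluster was at 12.5 CPM (7.0–20.6), and the Scgb2b7-led cluster at 1.29 CPM. By class, distal luminal-like cells had 7.59 CPM (6.69–8.57), fibroblast-like cells 7.54 CPM (5.41–10.2), endothelial-like cells 8.66 CPM (3.48–17.9) and proximal luminal-like cells 0.655 CPM (0.375–1.06). Ventral distal luminal-like cells had 0.847 CPM (0.579–1.20), and no ventral distal luminal-like cluster exceeded 0.963 CPM. The ventral level was 11 CPM (4.76–21.7, 8 UMIs) in basal-like cells. Fibroblast markers in these basal-like cells are given above.

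Cyp39a1, a 24-hydroxycholesterol 7-hydroxylase, was at 10.2 CPM (8.49–12.2) in basal-like, 7.41 CPM (6.37–8.57) in proximal luminal-like and 2.73 CPM (2.20–3.34) in distal luminal-like cells of the proximal library. Its ventral levels were 6.89, 5.04 and 0.530 CPM in the same order, from 5, 7 and 20 UMIs. Distal luminal-like cells were the lowest of the 3 in both libraries. The seminal vesicle epithelium-like cells had 15.8 CPM (8.83–26.0).

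Among the genes of fatty acids and eicosanoids Cyp4f18 lay almost wholly in 1 class. Cyp4f18, which oxidises leukotrienes and is known from myeloid cells, was at 75.1 CPM (40.0–128) in ventral and 85.3 CPM (68.1–106) in proximal macrophage-like cells, and at 0.184 CPM or less in every other named class. Of its 93 proximal UMIs 84 were in macrophage-like cells, a ratio of 863 (401–2213) over epithelial cells. A UMI was seen in 12 of 30 ventral and 34 of 79 proximal macrophage-like cells, in 13.3% and 11.5% after thinning. Zfp961 overlaps it on the opposite strand. Cyp4v3, a fatty acid hydroxylase, was at 48.8 CPM (36.0–64.7) in proximal macrophage-like cells and 16.7 CPM (13.5–20.6) in fibroblast-like cells, against 6.64 CPM in epithelial cells. In ventral macrophage-like cells it had 2 UMIs.

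Cyp4b1, an extrahepatic hydroxylase, stood out in endothelial-like cells at 50.7 CPM (36.4–68.8, 41 UMIs), 13.2-fold (9.27–18.4) over epithelial cells, which had 3.84 CPM. Fibroblast-like cells had 1.29 CPM (0.518–2.65). Among the epoxygenases Cyp2j6 was even, at 7.91 to 10.4 CPM in the 3 proximal epithelial classes, with 27.3 CPM (17.9–40.1) in seminal vesicle epithelium-like cells. Cyp2j9 was at 5.70 CPM (3.88–8.10) in fibroblast-like and 0.537 CPM in epithelial cells. Cyp2u1 was at 7.73 CPM in fibroblast-like, 5.90 CPM in proximal luminal-like and 1.26 CPM in distal luminal-like cells.

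Cyp4f13, Cyp4f16 and Cyp4f17 lay between 2.58 and 10.8 CPM in the 3 main epithelial classes and the fibroblast-like class of the proximal library. In the ventral epithelial classes they ran from 1.19 CPM (0.869–1.59) for Cyp4f16 in distal luminal-like to 14.4 CPM (8.80–22.2) for Cyp4f13 in proximal luminal-like cells. Reads shared between these close relatives and Cyp4f39 could be split or dropped in counting, as they could among the Cyp2j, Cyp2b and Cyp3a genes.

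Fibroblast-like clusters differed in P450 genes other than Cyp27a1. The cluster led by Cxcl12 had 115 CPM (102–129.9) of Cyp1b1 against 41.0 CPM (34.1–48.8) in the other fibroblast-like cells, a ratio of 2.82 (2.27–3.51). It held 35 of 36 UMIs of Cyp3a13, at 14.5 CPM against 0.330 CPM. Cyp2j9 was at 10.4 CPM against 1.98 CPM and Cyp4v3 at 27.4 against 8.26 CPM. In the Cxcl12-led cluster 4 of 15 members were called higher (5.51% of all genes) and 2 lower (6.99%). The 2 lower were Cyp7b1, at 4.15 against 10.2 CPM, and Cyp26b1, at 2.49 against 7.27 CPM.

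The retinoid group was carried by Cyp26b1, which breaks down retinoic acid. It was at 12.2 CPM (10.3–14.3) in proximal basal-like, 14.9 CPM (7.67–25.9) in endothelial-like, 5.15 CPM (3.42–7.45) in fibroblast-like, 2.01 CPM (1.48–2.65) in proximal luminal-like and 0.938 CPM (0.641–1.32) in distal luminal-like cells. Basal-like cells were above both luminal classes, 6.06-fold (4.36–8.55) and 13.0-fold (8.80–19.6). Among fibroblast-like cells the Inmt-led cluster had 18.6 CPM (10.6–30.3) against 2.62 CPM (1.36–4.58), a ratio of 7.10 (3.15–16.5). Cyp26b1 was the 1 of 15 members called higher in the Inmt-led cluster (5.04% of all genes), with 3 lower (8.69%), and Cyp7b1 the 1 called higher in the Cxcl14-led cluster (5.47%), with 5 lower (7.71%). The ventral library held 3 UMIs.

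Steroid hormone synthesis was nearly unseen. Its 6 members, Cyp11a1, Cyp11b1, Cyp11b2, Cyp17a1, Cyp19a1 and Cyp21a1, had 5 ventral and 31 proximal UMIs together, 0.103 and 0.330 CPM, and none reached 50 UMIs. In the vitamin D group Cyp2r1, a 25-hydroxylase, had 51 ventral and 95 proximal UMIs, at 1.23 CPM or less in proximal epithelial classes. Cyp20a1, an orphan enzyme with no assigned role, lay between 15.5 and 37.1 CPM in the proximal epithelial, fibroblast-like, endothelial-like and macrophage-like classes. The 72 members outside the rule for described members, among them the 6 of steroid synthesis and Cyp46a1, had at most 23 ventral and 41 proximal UMIs each, and 55 of them had at least 1.

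The epithelial classes were then compared across all members with enough UMIs. Proximal over distal luminal-like cells gave 7 of 17 members higher in the ventral library, where 30.5% of all genes were higher, and 1 lower, against 2.86%. The 7 were Cyp2f2, Cyp39a1, Cyp4f16, Cyp4b1, Cyp4v3, Cyp4f13 and Cyp7b1, and the 1 lower was Cyp3a57, whose fitted log2 ratio of -1.97, from 0 proximal luminal-like UMIs, depends on the CPM added and was -0.37 with 10 CPM. With 1000 genes and 5% mitochondrial UMIs as the cell filter Cyp7b1 turned to a log2 ratio of -0.81, and its ratio of 3.40 (0.873–9.59), from 4 ventral proximal luminal-like UMIs, had an interval that includes 1. The median log2 ratio was 0.64 over the members and 0.66 over all genes. Without the UMIs of 6 secretory genes all genes shifted by -0.54 and the members split 3 higher and 3 lower. Cyp2f2, Cyp39a1 and Cyp4f16 were called under both scalings, while 4 crossed the 2-fold line by less than their counting error. Their log2 ratios went from 1.43 to 0.94 (Cyp4b1), 1.30 to 0.77 (Cyp4v3), 1.21 to 0.68 (Cyp4f13) and 1.07 to 0.80 (Cyp7b1).

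The same contrast in the proximal library gave 4 of 24 members higher (17.6% of all genes), namely Cyp2f2, Cyp2u1, Cyp39a1 and Cyp4v3, and 3 lower (12.8%), namely Cyp3a57, Cyp7b1 and Cyp27a1. Its median log2 ratios were -0.03 over members and 0.05 over all genes. Without secretory genes the shift was -0.29 and the split 2 higher and 6 lower, with log2 ratios of 0.83 in place of 1.15 for Cyp4v3 and 0.89 in place of 1.18 for Cyp39a1, and with the mean over cells in place of summed UMIs it was 3 higher and 4 lower. Cyp27a1 owed its call to the Msmb-led cluster: without it the log2 ratio was -0.09 in place of -1.28.

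Basal-like over proximal luminal-like cells gave 1 of 8 members higher (Cyp2s1, 13.3% of all genes) and 4 lower (20.0%) in the ventral library. The 4 lower were Cyp2f2, by 5.84-fold (4.78–7.21), Cyp2b10, by 12.8-fold (3.36–109), Cyp2j6 and Cyp4v3. The members' median was -1.34 and that of all genes -0.08. With 5% free RNA subtracted the split was 0 higher and 4 lower, since Cyp2s1, with 20 UMIs in these cells, then fell under the minimum of 20 UMIs. Its log2 ratio of 3.98 stayed between 1.76 and 4.81 under every alternative run. The proximal library had 5 of 21 higher (11.9%), namely Cyp2s1, Cyp26b1, Cyp27a1, Cyp7b1 and Cyp2j9, and 0 lower (8.72%). Without the Grp-led cluster it was 7 higher and 2 lower, and with the mean over cells 6 higher and 1 lower. Within basal-like cells that cluster had 3 of 17 members higher (6.81% of all genes), Cyp2b10, Cyp2f2 and Cyp27a1, and 4 lower (13.9%), Cyp7b1, Cyp2u1, Cyp4b1 and Cyp2d22.

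Basal-like over distal luminal-like cells gave 4 of 17 members higher (35.5% of all genes) and 4 lower (12.4%) in the ventral library. Higher were Cyp2f2, Cyp7b1, Cyp39a1 and Cyp4f16, and lower were Cyp2b10, Cyp3a57, Cyp4v3 and Cyp2r1. For Cyp3a57 and Cyp2r1, with 0 basal-like UMIs, and Cyp4v3, with 1, a difference was not detectable at this depth. Without secretory genes all genes shifted by -0.79 and the split was 4 higher and 9 lower, and the mean over cells gave 4 and 7. The proximal library had 5 of 26 higher (23%), namely Cyp2s1, Cyp26b1, Cyp2f2, Cyp39a1 and Cyp4b1, and 4 lower (15%), namely Cyp3a57, Cyp7b1, Cyp4f13 and Cyp2e1. The scaling without secretory genes shifted all genes by -0.30 and gave 5 higher and 7 lower. Without the Msmb-led cluster the split was 7 higher and 2 lower, with log2 ratios of -0.12 for Cyp2e1 and -0.97 for Cyp4f13. Without the Grp-led cluster it was 8 and 3, with -0.88 for Cyp7b1 and -0.93 for Cyp4f13.

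Fibroblast-like against epithelial cells of the proximal library gave 8 of 27 members higher (20.7% of all genes) and 5 lower (10.9%). Higher were Cyp1b1, Cyp3a13, Cyp2j9, Cyp2d22, Cyp27a1, Cyp4v3, Cyp2u1 and Cyp46a1, the last a cholesterol 24-hydroxylase with 10 fibroblast-like UMIs, named after its value was seen. Lower than the 3 epithelial classes summed were Cyp2b10, Cyp2f2, Cyp3a57, Cyp2s1 and Cyp4b1. Against single classes this did not hold throughout: fibroblast-like cells had 1.10 CPM of Cyp2s1 against 1.11 CPM in proximal luminal-like and 0.264 CPM in distal luminal-like cells. They also had 1.47 CPM of Cyp3a57 against 1.15 CPM in proximal luminal-like and 0.979 CPM in basal-like cells. Cyp2f2, at 41.0 CPM in fibroblast-like cells, was not below its level in distal luminal-like cells, given above, and the intervals of these classes overlapped. Ratios of the higher genes ran from 2.50 (1.75–3.49) for Cyp2u1 to 218 for Cyp1b1. The median log2 ratio of the members was 0.29 and that of all genes 0.12. Without secretory genes, a shift of -0.13, the log2 ratio of Cyp2u1 went from 1.09 to 0.96, less than its counting error. No fibroblast-like cell had over 5% of its UMIs from Sbp and Spink1.

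Between the libraries the same class was compared, with region and kit version not separable and with different clusters holding each class. Ventral distal luminal-like cells lay mostly in clusters led by Kitl, Hnf4g, Gm7714 and Mtmr4, and the proximal ones in clusters led by Ren1, Msmb and Scgb2b7. In distal luminal-like cells 5 of 25 members were higher in the proximal library (29.3% of all genes): Cyp7b1 by 8.96-fold (6.19–13.4), Cyp3a57 by 6.73-fold (5.49–8.31), Cyp39a1, Cyp4f16 and Cyp27a1. Only Cyp2b10 was lower, by 4.09-fold (3.70–4.53), where 1.09% of all genes were. Members had a median of 0.56 and all genes 0.67. Without secretory genes the shift was -0.37 and the split 7 higher and 3 lower, and without the Msmb-led clusters the log2 ratio of Cyp27a1 was 1.00 in place of 1.63 and that of Cyp39a1 0.82 in place of 1.28.

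In proximal luminal-like cells, in the ventral library 1 cluster led by Wfdc2 and in the proximal library clusters led by Tff3, Gm13986 and Prol1, 5 of 19 members were higher in the proximal library (27.0%) and 2 lower (14.2%). Higher were Cyp2u1, by 4.10-fold (1.11–34.1, 2 ventral UMIs), Cyp27a1, by 3.01-fold (1.01–14.8, 3 ventral UMIs), Cyp26b1, Cyp3a57 and Cyp2c55. The last 3 had 0 ventral UMIs at a depth where 3 UMIs make 2.16 CPM, so no difference was detectable. Lower were Cyp4b1, by 2.63-fold (1.45–4.47), and Cyp7b1, by 4.40-fold (1.07–13.6), from 4 ventral UMIs. With 1000 genes and 5% mitochondrial UMIs as the cell filter Cyp7b1 had a log2 ratio of 0.73 and Cyp3a57 one of -0.23, both of the opposite sign. Medians were 0.08 and 0.21. The split became 5 and 4 without secretory genes, a shift of -0.26, and 3 and 2 with the mean over cells, under which the log2 ratio of Cyp27a1 was 0.39 in place of 1.25.

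In basal-like cells, which were 1 ventral cluster led by Apoe and 3 proximal clusters led by Krt14, Grp and Scpep1, 6 of 17 members were higher in the proximal library (32.9%) and 2 lower (15.9%). Higher were Cyp2b10, Cyp27a1, Cyp26b1, Cyp2f2, Cyp2u1 and Cyp4v3, and lower were Cyp7b1 and Cyp2d22. With 0 and 1 ventral UMIs, no difference of Cyp2u1 and Cyp4v3 was detectable, and Cyp26b1 rested on 2 (4.41-fold, 1.20–36.7). The members' median was 0.46 and that of all genes 0.29. The calls of Cyp2f2 and Cyp2b10 ended without the Grp-led cluster, when the log2 ratio of Cyp2f2 was 0.48 in place of 1.22 and that of Cyp2b10 was -0.65 in place of 2.79.

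The partners of the P450 enzymes were read from 7 lists of other genes. Of 10 electron donors and haem genes, 5 were higher in proximal than distal luminal-like cells in each library. Over all genes 30.5% were higher and 2.86% lower in this ventral contrast, and 17.6% and 12.8% in the proximal one. The median log2 ratio was 0.93 in both, against 0.66 and 0.05 over all genes. The ventral 5 were Por, Cyb5r3, Fdxr, Alas1 and Hmox1, with 0 lower, and the proximal 5 Por, Fdx1, Pgrmc1, Alas1 and Hmox1, with Cyb5b lower. Alas1, which makes the first haem precursor, was at 31.0 against 7.92 CPM in the ventral library, a ratio of 3.91 (2.77–5.40), and at 128 against 29.1 CPM in the proximal library, a ratio of 4.41 (4.10–4.74). Hmox1, which breaks haem down, had ratios of 4.94 (2.99–7.83) and 13.3 (11.9–14.9).

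Of the receptors that regulate P450 genes and their partners, a list that also holds the repressors Tiparp and Ahrr, 9 of 12 were higher in ventral proximal luminal-like than distal luminal-like cells (30.5% of all genes) with 0 lower, a median of 1.54, and in the proximal library 6 of 15 (17.6%) were higher with 1 lower, a median of 0.70. Medians over all genes were 0.66 and 0.05, and the scaling without secretory genes shifted them by -0.54 and -0.29. Ahr led both, at 30.2 against 2.81 CPM, a ratio of 10.8 (7.35–15.5), and at 297 against 19.1 CPM, a ratio of 15.6 (14.4–16.9). Xenobiotic conjugation genes were higher for 11 of 19 in the ventral library (30.5% of all genes), with 0 lower (2.86%) and a median of 1.15. Proximal counts were 11 of 27 higher (17.6%), with 4 lower (12.8%) and a median of 0.55. Gsta4, a glutathione transferase, was at 490.1 against 25.9 CPM in the proximal library. Ces1d, a carboxylesterase, was at 46.1 against 0.688 CPM in the ventral library.

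Retinoid genes outside the P450 group were higher in proximal luminal-like cells for 3 of 6 (ventral, 30.5% of all genes) and 6 of 13 (proximal, 17.6%), with 1 lower in each, Crabp1, a binding protein for retinoic acid. Its levels were 79.2 against 260.4 CPM and 0.369 against 31.3 CPM. Eicosanoid genes were higher for 5 of 7 and 5 of 11, against the same shares, with 0 lower, medians 2.0 and 0.82. Ptgs1 was at 30.2 against 0.212 CPM in the ventral library but at 16.9 against 31.4 CPM in the proximal library. Genes of steroid synthesis and conversion gave 3 of 11 higher (30.5% of all genes) and 1 lower (2.86%) in the ventral library. In the proximal library they gave 2 of 18 higher (17.6%) and 2 lower (12.8%). Of the P450 enzymes with other symbols, 0 of 1 and 0 of 3 were called higher, with 0 lower.

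In fibroblast-like cells the steroid conversion list gave 8 of 18 genes higher than in epithelial cells and 0 lower, with a median of 0.72. Over all genes 20.7% were higher and 10.9% lower in this contrast, with a median of 0.12. Srd5a2, which makes dihydrotestosterone, was at 119.6 against 2.81 CPM, a ratio of 42.6 (36.3–50.1), and Hsd11b1, which reactivates glucocorticoids, at 57.8 against 0.777 CPM, a ratio of 74.4 (55.7–101). Of the P450 enzymes with other symbols Ptgis, the prostacyclin synthase, was at 201 against 0.381 CPM, a ratio of 526 (359–802). Cyp51, of cholesterol synthesis, was at 23.6 against 32.1 CPM. Eicosanoid genes gave 4 of 14 higher and 3 lower, with a median of -0.23, and Ptgs2 was at 240.5 against 3.56 CPM. Xenobiotic conjugation gave 10 of 28 higher and 7 lower, with a median of -0.19, and Fmo1 was at 45.1 against 1.20 CPM. Receptors gave 7 of 16 higher and 2 lower, retinoid genes 4 of 13 and 2, and electron donors 1 of 10 and 1, with medians of 0.63, 0.57 and 0.49.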

How the data were processed

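The authors deposited unnormalised UMI counts for each gene in each barcode. They come from Cell Ranger 7.0.0, as the file headers record, with build mm10 per the submitters' processing notes. The annotation is not given in the sources used here. Coordinates come from GENCODE M21 (GRCm38, the same sequence as mm10), in which all 99 identifiers were found.

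Barcodes under 500 genes or over 10% mitochondrial UMIs were removed (226 ventral, 635 proximal), then called doublets (Scrublet, expected rate 0.8% per 1000 cells). Counts were scaled to 10000 per cell within a library, logged, and reduced from 2000 variable genes, members excluded, to 30 principal components. Leiden clustering (resolution 1, 15 neighbours, seed 0; scanpy 1.11.5, Python 3.11.15) gave 11 ventral and 21 proximal clusters, named from 19 marker lists. A cluster whose leading genes belonged to another class stayed unnamed. UMIs were summed per class. Poisson, ratio and binomial (Clopper-Pearson) intervals are exact. With 1 library per group there was no test.

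Described members had 50 UMIs in a library, or 20 of which most lay in 1 class. Other listed genes were the 2 highest and 2 lowest of a list. Members, lists and comparisons were chosen with earlier results of these data known. Scripts were tested on simulated data. In all, 10 comparisons between classes or libraries were run with 19 alternatives for counts of called members, 17 of which also apply to single ratios, and 2 for shares of cells. Of the 19, 3 were chosen after seeing the data. A further 8 comparisons of 1 cluster with the rest of its class had no alternatives.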

Additional observations from a re-analysis of the deposited data

Results flagged for a closer look

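For 5 member and contrast pairs the same contrast went opposite ways in the 2 libraries with both ratio intervals on their own side of 1. The difference was not tested, since each library is 1 sample. Pairs of opposite sign in which an interval reached 1 are not among the 5, such as Cyp7b1 in proximal over distal luminal-like cells (1.07 and -2.38) and Cyp4f13 in basal-like over distal luminal-like cells (0.25 and -1.06). Cyp2b10 had a log2 ratio of proximal over distal luminal-like cells of -0.67 among ventral and 0.52 among proximal cells. Its basal-like over proximal luminal-like value was -3.27 and 0.29, and its basal-like over distal luminal-like value -3.94 and 0.81. In the proximal library 96.4% of the basal-like Cyp2b10 UMIs were in the Grp-led cluster. At the levels given above, the other proximal basal-like cells lay below both luminal-like classes, the direction seen in the ventral library. The Sbp and Spink1 share of ventral proximal luminal-like cells is also given above, and its part in these ratios was not tested. Cyp7b1 had a log2 ratio of basal-like over distal luminal-like cells of 2.70 in the ventral library, from 8 basal-like UMIs, and -1.28 in the proximal library. Cyp4f16 had 1.57 in the same contrast, from 4 basal-like UMIs, and -0.62 in the proximal library.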

How the results depend on the processing

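No paired analysis was possible because each group has 1 library. Of 1155 log2 ratios of single members under 17 alternatives, 780 moved by less than their counting error, 371 moved by more and 4 changed sign. The 4 were Cyp7b1 in proximal over distal luminal-like cells of the ventral library (-0.81), Cyp7b1 (0.73) and Cyp3a57 (-0.23) in proximal luminal-like cells between libraries, all with 1000 genes and 5% mitochondrial UMIs as the cell filter, and Cyp2b10 in basal-like cells between libraries (-0.65) without the Grp-led cluster, an alternative chosen after seeing the data. The cause was not tested. Of 75 called ratios 22 stayed at least 2-fold under every alternative run, 53 did not under at least 1, and with the pseudocount of 10 CPM set aside 24 did not. The 24 were proximal over distal luminal-like Cyp7b1, Cyp4b1, Cyp3a57, Cyp4v3 and Cyp4f13 (ventral) and Cyp27a1, Cyp4v3 and Cyp39a1 (proximal), proximal basal-like over proximal luminal-like Cyp7b1 and Cyp2j9 and over distal luminal-like Cyp7b1, Cyp2e1 and Cyp4f13, fibroblast-like over epithelial Cyp2u1, Cyp4b1 and Cyp4v3, and between libraries Cyp39a1 in distal luminal-like, Cyp27a1, Cyp7b1, Cyp4b1, Cyp3a57 and Cyp2c55 in proximal luminal-like, and Cyp2b10 and Cyp2f2 in basal-like cells. Of 175 counts of called members 147 stayed within 1.5 times the main count. The others are given in the order proximal over distal luminal-like, basal-like over proximal luminal-like and basal-like over distal luminal-like in the ventral library, the same 3 in the proximal library, fibroblast-like over epithelial, then distal luminal-like, proximal luminal-like and basal-like cells between libraries. A pseudocount of 10 CPM, which pulls low genes toward 0, gave 1 in the first, 2 in the third, 2, 2 and 4 in the proximal 3, 4 for fibroblast-like, and 2, 0 and 3 between libraries. A fold of 4, a stricter rule, gave 1 in the first, 4 in the third, 3, 3 and 4 in the proximal 3, 8 for fibroblast-like, and 2, 0 and 1 between libraries. A minimum of 50 UMIs, with fewer genes tested, gave 2 and 4 for the ventral basal-like contrasts, 3 for proximal basal-like over proximal luminal-like, and 3 and 5 for proximal luminal-like and basal-like cells between libraries. For ventral basal-like over proximal luminal-like cells, the filter of 1000 genes and 5% gave 3, and removing those in which Sbp and Spink1 exceeded 5% gave 3. CPM without secretory genes gave 13 for ventral basal-like over distal luminal-like and 10 for distal luminal-like cells between libraries. Leaving out the Grp-led cluster gave 9 for proximal basal-like over proximal luminal-like cells. Of 180 shares of cells with a UMI, 79 moved with the depth to which cells were thinned. Ventral basal-like cells, at 725410 UMIs in all, limit what could be seen: 3 UMIs make 4.14 CPM there and 0.0794 CPM in ventral distal luminal-like cells.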

Other observations

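In 3 small proximal classes most Cyp2f2 UMIs lay in 1 cell. The 27 T or NK-like cells had 21 UMIs (97.6 CPM), 20 of them in 1 cell. The 79 macrophage-like cells had 19 UMIs, 15 of them in 1 cell, and the 6 smooth muscle or pericyte-like cells had 10 UMIs (149 CPM), all in 1 cell. In ventral cells the Msmb-led cluster had 77.6 CPM of Cyp2f2 (67.1–89.4) against 20.1 CPM (18.6–21.6) in the other distal luminal-like cells, and in the proximal library 49.5 CPM (45.4–53.8) against 26.9 CPM (24.8–29.1). The 65 cells of the ventral distal luminal-like cluster led by Scgb2b27, with a median of 0.134% mitochondrial UMIs, had 37.1 CPM of Cyp2b10 (24.5–54.0) and 0 UMIs of Cyp27a1. Their median depth was 9772 UMIs, and whether this 0 is a lower level than in other clusters was not tested.

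The unnamed clusters are given beside the class they scored best for. The 320 unnamed ventral cells had 62.3 CPM of Cyp2b10 and 17.8 CPM of Cyp2f2, against 56.7 and 23.9 CPM in distal luminal-like cells. The 598 unnamed proximal cells had 749 CPM of Cyp2f2 and 9.05 CPM of Cyp2b10, against 600.5 and 20.3 CPM in proximal luminal-like cells. Cyp2u1 in these proximal cells was at 7.33 CPM (6.01–8.86), and Cyp26b1 at 4.04 CPM (3.08–5.22).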
